A study of Rattus norvegicus with 90 samples.

Results

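The 200 transcripts described here were selected in primary rat renal cells exposed to thioacetamide-S-oxide, because their level stood near that of vehicle cultures after 9 h and above it after 24 h at the high dose. They were taken from 40071 rat transcripts with Ensembl identifiers. The level of a transcript was its estimated count per 1000000 counts on transcripts of the same library (CPM). L is the log2 of the ratio of the mean high-dose CPM to the mean vehicle CPM, with 1 added to each mean. A transcript met the rule when L was between -0.2 and 0.2 at 9 h and above 0.8 at 24 h, and 213 transcripts did so. The 200 with the largest L at 24 h were kept as members. No table used here pairs these identifiers with genes, so the members are given by identifier, and neither gene functions, cell type markers nor pathways could be checked. The labelled cell type was therefore not tested against its markers.

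Thioacetamide is a liver toxicant that is not very reactive itself. Oxidizing enzymes of the liver turn it into thioacetamide-S-oxide and then into a further oxidized form that binds to proteins and lipids, and giving the S-oxide to cultured cells passes over the earlier of these steps. Proximal tubular epithelial cells line the part of the nephron that takes back most of the filtered solutes and secretes many drugs and toxicants, and they are a frequent site of chemical injury. After such an exposure, transcripts that respond within hours are often set by pathways already poised in the cell, whereas transcripts that move later can depend on newly made regulators, on lasting damage or on changes of culture state.

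The cells were from Sprague-Dawley rats. Renal cells, labelled as renal tube epithelial cells and described in the methods as cryopreserved proximal tubular epithelial cells that were purchased, received vehicle, 0.125 mM (low dose) or 0.500 mM (high dose). Hepatocytes, also purchased frozen, received vehicle, 0.025 or 0.125 mM, and cardiomyocytes received vehicle, 0.50 or 1.50 mM. Exposure lasted 9 or 24 h, and vehicle was the medium of the culture. All cultures had been kept for some further hours before exposure, so time of exposure and time in culture cannot be told apart. Each of the 18 conditions had 5 poly-A-enriched libraries, 90 in all. Nothing in the labels says that the 5 cultures came from separate animals, so a p-value here measures the spread between these cultures.

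The renal libraries held from 10729341 to 36106568 estimated counts on transcripts. Hepatocyte vehicle library MS-183 at 24 h held 249303 counts on transcripts, against 10519414 to 55822031 in every other library of the series. It was kept, and the tests against hepatocyte vehicle at 24 h are given with and without it. A group of 6 renal libraries at 24 h stood apart in part of the members. These were vehicle libraries MS-137 and MS-140, low-dose libraries MS-144 and MS-145, and high-dose libraries MS-147 and MS-149. Single libraries of the other cell types stood apart in the same members, and their values are given with the renal ones below.

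The rule used the 20 vehicle and high-dose renal libraries, and the values from these libraries are given as a description without a test. L at 24 h ran from 0.821 to 2.77 with a median of 1.001, against a median of 0.06 over the 17798 transcripts that passed the filter on low counts at 24 h. The next transcript that was left out had an L of 0.817. L at 9 h ran from -0.199 to 0.199 among the members. The nearest transcripts outside these limits, with L at 24 h as large as that of a member, stood at 0.201 and -0.204. Of 1109 transcripts with such an L at 24 h, 837 were already above the upper limit at 9 h and 72 were below the lower limit, so most transcripts that stood this far above vehicle at 24 h also stood above it at 9 h.

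The members fell into 2 classes by how the 5 libraries of a group lay. In 141 of the 200 members all 5 high-dose libraries lay above all 5 vehicle libraries at 24 h, an order found in 23.7% of the 17798 transcripts tested. In the other 59 members the groups overlapped. The edgeR fit tested 180 of the members at 24 h and placed 147 of them higher at the high dose than in vehicle, beside 12.0% of all transcripts tested. Nothing is read from either count, because the rule was applied to the same libraries. The remaining 20 members did not pass the filter and 33 were tested without being called. At 9 h, edgeR called 0 of 166 members tested, beside 19.1% of all transcripts, and 42 (25.3%) had an unadjusted p under 0.05, beside 62.9%. The rule fixed this difference too. No other tool was run on this comparison.

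The summed level of the 141 members with separate groups was close between libraries of a group. At 9 h it was 3573 ± 30.5 CPM (SD, n = 5) in vehicle, 3362 ± 20.6 CPM at the low dose and 3786 ± 33.6 CPM at the high dose. At 24 h it was 2939 ± 19 CPM in vehicle and 6294 ± 129 CPM at the high dose, where the 5 libraries ranged from 6167 to 6484 CPM. This order of the groups is the one that the members were selected for. At the low dose and 24 h, 4 libraries held between 3071 and 3125 CPM and MS-145 held 2305 CPM. In bulk RNA of this kind, a change in the share of cells and a change in the RNA of each cell cannot be told apart.

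**Figure D1:**
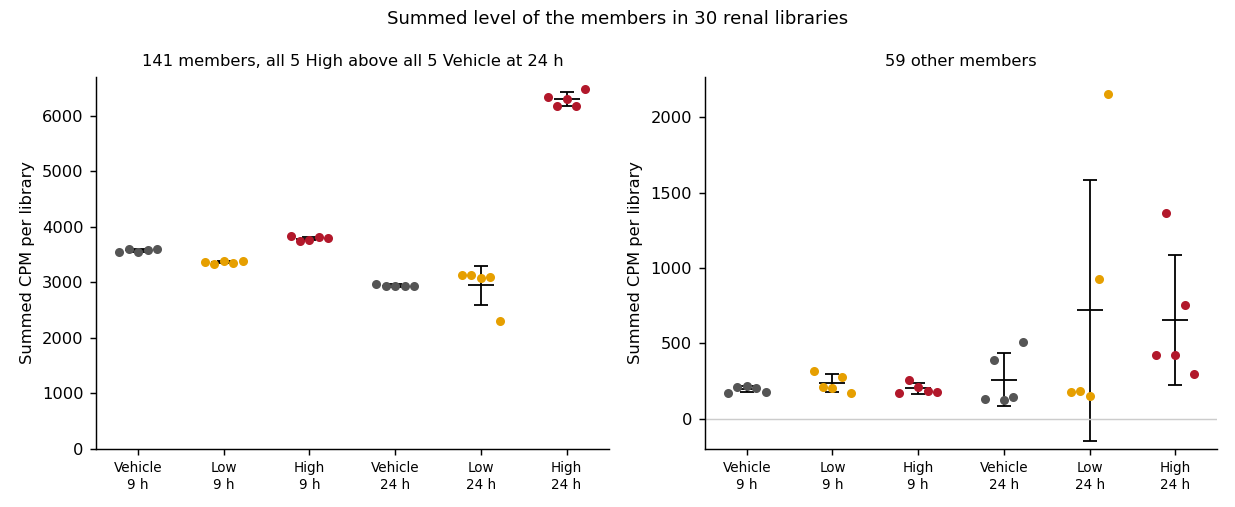
Summed CPM of the members in each of the 30 renal libraries, for the 141 members whose high-dose libraries all lay above the vehicle libraries at 24 h (left) and for the other 59 (right). Points are libraries, and bars are the mean and SD of 5. On the left, the high-dose libraries at 24 h lie between 6167 and 6484 CPM and the vehicle libraries between 2922 and 2971 CPM, while on the right single libraries set the means.

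The 59 other members varied more between libraries. A median of 44.7% of their high-dose sum at 24 h lay in a single library, from 23.0% upward, against 22.7% in the 141 with separate groups. Their summed level at the high dose and 24 h was 1362 CPM in MS-147 and 753 CPM in MS-149, against 299 to 424 CPM in the other 3 libraries. It was also raised outside the high dose. Low-dose library MS-145 held 2151 CPM and MS-144 held 926 CPM, against 149 to 184 CPM in the other low-dose libraries at 24 h. Vehicle libraries MS-137 and MS-140 held 389.8 and 509 CPM, against 122 to 145 CPM. In cardiomyocytes the same sum was 1133 CPM in low-dose library MS-158 at 9 h (against 133 to 224 CPM), 943 and 741 CPM in low-dose libraries MS-172 and MS-174 at 24 h (against 115 to 262 CPM) and 411 CPM in vehicle library MS-168 at 24 h (against 85.7 to 124 CPM). In hepatocytes it was 1399 CPM in high-dose library MS-120 at 24 h, against 358 to 507 CPM, and 591 CPM in MS-105 at 9 h, against 318 to 367 CPM. Hepatocyte vehicle library MS-183 held 7419 CPM, against 379.5 to 603 CPM. Of these 59 members, 39 had their highest high-dose value in MS-147 and 8 in MS-149. In 26 of the 200 members a single library gave over 50% of the high-dose sum at 24 h, and that library was MS-147 for 23 of them. Of the 26, 25 had overlapping groups. The other was ENSRNOT00000084322, named here after its values were seen, which had 90.7% of its sum in MS-148 and whose vehicle mean was practically 0, so that its groups count as separate on traces of a read. Of the 20 members with the largest L at 24 h, 7 were of this kind. Together the 26 held 687 CPM in MS-147, 1389.7 CPM in MS-145 and 736 CPM in MS-158. In MS-183 they held 172 CPM, so most of the 7419 CPM of that library lay in other members. What sets these libraries apart was not tested. Beside their levels, MS-145 and MS-137 held 14178701 and 10729341 counts on transcripts, whereas MS-144, MS-140, MS-147 and MS-149 held between 23572516 and 29413606. With MS-147 left out of the rule, 161 of the 200 members were still taken, and with MS-147 and MS-149 left out together, 146.

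The transcript with the largest L, ENSRNOT00000061041 (438 bases), belonged to the latter class. At the high dose and 24 h it stood at 55.6 CPM in MS-147 and at 0.227, 0, 0 and 0.11 CPM in the other 4 libraries. It stood at 62.7 CPM in low-dose library MS-144 and at 0 in the other 4 low-dose libraries, and vehicle libraries MS-137 and MS-140 each held 1.96 CPM. Among the other cell types it reached 65.4 CPM in high-dose hepatocyte library MS-120 and 57.6 CPM in low-dose cardiomyocyte library MS-174, with every other library of those cell types under 1 CPM. Its L of 2.77 thus came from 1 of 5 libraries. ENSRNOT00000058700 (969 bases, rank 19) showed the same at a higher level. At the high dose and 24 h its values were 10.1, 183, 4.97, 54.6 and 2.89 CPM, and in vehicle they were 4.7, 25.1, 3.64, 6.37 and 38 CPM. At the low dose, 159 CPM in MS-144 and 271 CPM in MS-145 lay beside 1.52 to 6.61 CPM in the other 3 libraries. It was also at 198 CPM in cardiomyocyte library MS-158, where the other low-dose libraries at 9 h held 4.6 to 14.5 CPM. Along with several further transcripts below, this one was singled out after its values were seen.

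The members with separate groups and the largest L rose several-fold with little spread. ENSRNOT00000067391 (382 bases, rank 2) was at 48.4 ± 3.29 CPM in vehicle and 45.4 ± 3.53 CPM at the high dose at 9 h (SD, n = 5). At 24 h the vehicle libraries held 34.4, 36, 35.2, 39.5 and 30.4 CPM, and the high-dose libraries 184, 187, 193, 166 and 197 CPM. The high-dose level was thus far above every other renal library, and of the low-dose libraries at 24 h 4 lay among the vehicle libraries, at 33.6 to 38.9 CPM, and MS-144 below them, at 26.3 CPM. At 9 h the order differed, since the low-dose libraries (61.6 to 74.5 CPM) lay above those of both vehicle and the high dose.

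ENSRNOT00000027847 (2967 bases, rank 3) was at 17.5 ± 0.704 CPM in vehicle and 16.2 ± 1.08 CPM at the high dose at 9 h. At 24 h vehicle had gone down to 8.8, 6.5, 8.49, 8.93 and 5.8 CPM, whereas the high-dose libraries held 42.6, 29.8, 46.3, 37.7 and 49.8 CPM. Its L of 2.28 therefore joins a lower vehicle level to a higher high-dose level. ENSRNOT00000003075 (1134 bases, rank 7) followed the same course at a lower level. No read of it was divided with another transcript in any of the 90 libraries, as far as whole counts show. It was at 3.7 ± 0.378 CPM in vehicle and 3.56 ± 0.257 CPM at the high dose at 9 h. At 24 h it was at 1.58 ± 0.245 CPM in vehicle and 9.28 ± 0.283 CPM at the high dose, and the 5 high-dose libraries lay between 8.81 and 9.52 CPM.

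**Figure D2:**
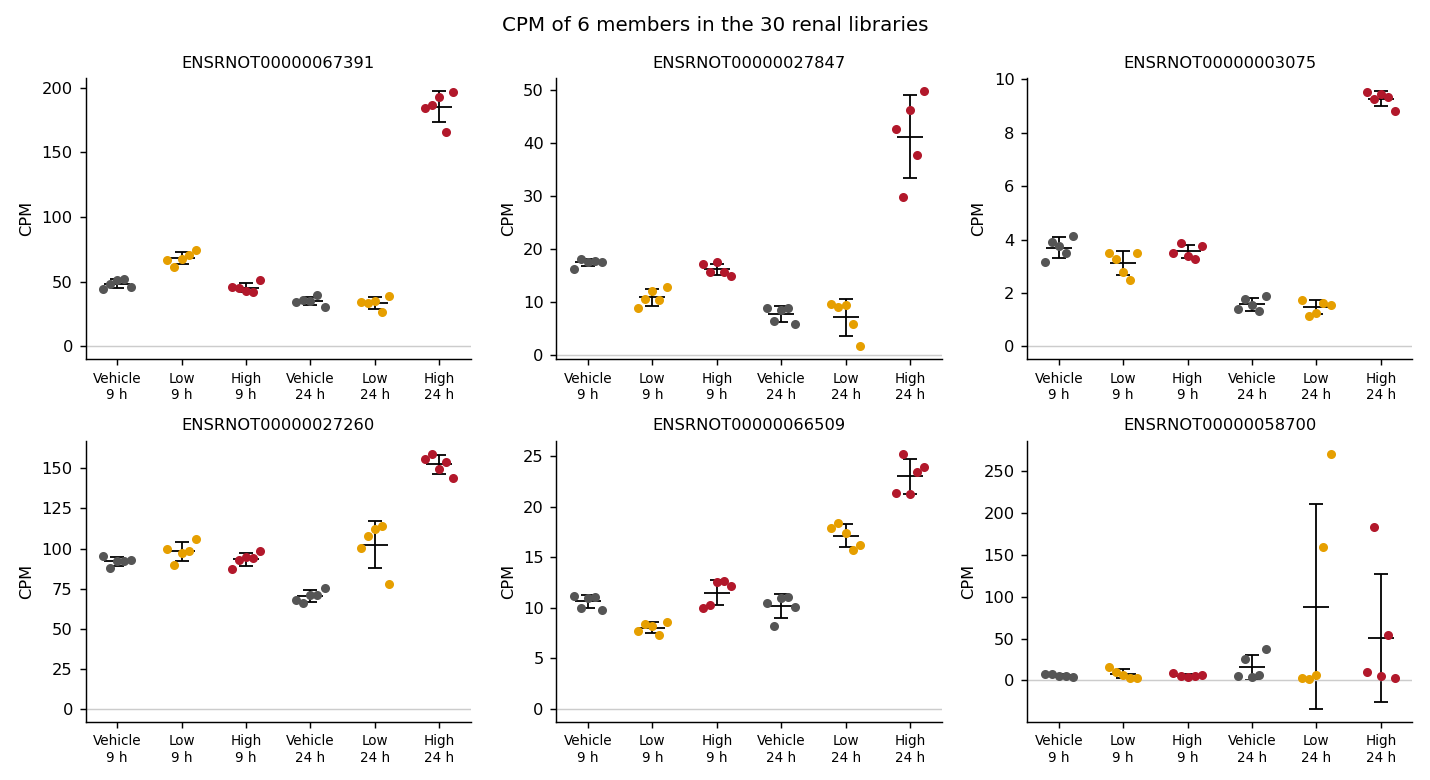
CPM of 6 members in the 30 renal libraries, by dose and time. Points are libraries, and bars are the mean and SD of 5. In 5 of the panels the high-dose libraries at 24 h lie above all vehicle libraries, and in ENSRNOT00000058700 a few libraries of every group at 24 h stand far above the rest.

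A large L at 24 h can come from a higher level in the exposed cultures, from a lower level in vehicle, or from both. On the log2(mean CPM + 1) scale, the high-dose cultures changed between 9 and 24 h by a median of 0.77 over the 200 members, and the change was above 0 in 198. The vehicle cultures changed by a median of -0.25, with 149 members lower and 49 higher at 24 h. Among the 141 members with separate groups, the medians were 0.69 at the high dose and -0.30 in vehicle. In 126 of these 141 the high-dose mean went up and the vehicle mean went down, in 14 both went up, and in 29 the fall in vehicle was larger than the rise at the high dose. A median of 70.5% of the gap that opened after 9 h lay on the high-dose side. Among the other 59 members, the vehicle mean went up in 35, with a median of 0.10, and the high-dose mean went up by a median of 1.29.

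**Figure D3:**
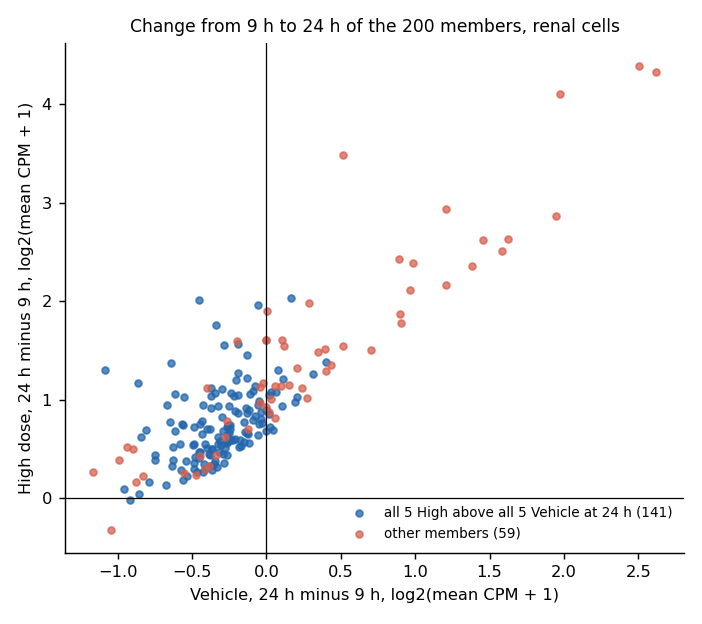
Change from 9 to 24 h of each member in renal cells, in vehicle (horizontal) and at the high dose (vertical), both as differences of log2(mean CPM + 1). Blue points are the 141 members with separate groups at 24 h and lie mostly left of 0 and above it, with medians of -0.30 and 0.69, and red points are the other 59.

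At the low dose the 141 members with separate groups lay on both sides of vehicle, and the means of the other 59 lay mostly above it. This comparison shares the vehicle libraries with the rule, so it too is a description. At 24 h the low-dose mean of the 141 members with separate groups was above vehicle in 71 and below it in 70, with a median difference of 0.00 on the log2(mean CPM + 1) scale. All 5 low-dose libraries lay below all 5 high-dose libraries in 128 of them, a count favoured by selecting high levels in these high-dose libraries. The same share was not taken over all transcripts, so nothing is read from it. Among the other 59, the low-dose mean was above vehicle in 57, with a median difference of 0.81, and above the high-dose mean in 24. These means include MS-144 and MS-145, with the sums given above. The other low-dose libraries held 149 to 184 CPM of that sum, and vehicle libraries other than MS-137 and MS-140 held 122 to 145 CPM. In the edgeR fit, 1 of 164 members tested was higher at the low dose than in vehicle at 24 h, beside 0.0452% of all transcripts. At an unadjusted p under 0.05, 15 (9.15%) were higher, beside 3.05% of all transcripts. None was lower (background 0.0170%) in edgeR or in DESeq2, and 0 were lower at an unadjusted p under 0.05, beside 3.29%. Because the rule favours low vehicle levels at 24 h, no excess is read from these shares. The median log2 fold change of the members tested was 0.15, against -0.00 over all transcripts. Without the 4 libraries MS-137, MS-140, MS-144 and MS-145, 3 of 161 members tested were called higher, beside 0.285% of all transcripts, and 0 lower, beside 0.190%. At 9 h, 4 of 164 members were lower at the low dose (2.44%, background 4.41%), by -0.93 to -0.63 on the log2 scale. None was higher (background 2.28%) in edgeR or in DESeq2, and 8 (4.88%) were higher at an unadjusted p under 0.05, beside 19.3% of all transcripts. At the same limit 47 (28.7%) were lower, beside 19.9%. The median of the members tested was -0.10, against -0.00 over all transcripts.

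The member called at the low dose and 24 h was ENSRNOT00000027260 (1030 bases, rank 75). Its vehicle libraries held 67.9, 66, 71.1, 71.3 and 75.6 CPM and its low-dose libraries 100.5, 108, 112, 114 and 77.7 CPM, where the last is MS-145. All 5 lay above vehicle, and the high-dose libraries (144 to 159 CPM) lay above both. Low dose and vehicle differed by a log2 fold change of 0.66 ± 0.08 (SE; edgeR, adjusted p = 0.0185). The rule used these vehicle libraries and favours low levels in them, so this value is a description. The call held without MS-140, MS-141 or MS-145 and was lost without any one of the other 7 libraries, with log2 fold changes from 0.62 to 0.7.

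The low-dose libraries of 9 and 24 h are the renal libraries that played no part in the rule. Between these times, 2 of 170 members tested rose (1.18%, beside 0.921% of all transcripts) and 4 fell (2.35%, beside 1.54%). The median change of the members was 0.03, against 0.01 over all transcripts. Without MS-144 and MS-145, 7 of 172 members rose (4.07%, beside 1.57% of all transcripts) and 7 fell (4.07%, beside 2.57%). With 1 library left out, 1 to 5 rose and 1 to 6 fell, both highest without MS-145. DESeq2 called 11 in either direction (6.59%, beside 3.83% of all transcripts) and a joint fit of the 6 renal groups 23 (11.8%, beside 6.2%), so the count depends on the fit and on these libraries.

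Of the 2 that rose, ENSRNOT00000066509 (7939 bases, rank 76) was named because its mean log2 CPM reached 3, and the other rose more, by 2.55 on the log2 scale. Its low-dose libraries held 7.67, 8.39, 8.19, 7.27 and 8.56 CPM at 9 h and 17.9, 18.4, 17.4, 15.7 and 16.2 CPM at 24 h. The groups did not overlap and the log2 fold change was 1.28 ± 0.13 (SE; edgeR, adjusted p = 3.92e-04). In vehicle it stayed at 10.6 ± 0.662 and 10.2 ± 1.18 CPM, and the high dose reached 23 ± 1.72 CPM at 24 h. The order at 24 h was therefore vehicle, low dose, high dose, with no overlap between neighbouring groups. The low dose against vehicle at 24 h, which shares the vehicle libraries with the rule, gave a log2 fold change of 0.88 ± 0.13 that was not called (edgeR, adjusted p = 0.0559). ENSRNOT00000067391 went the other way at the low dose, from 68.3 ± 4.78 CPM at 9 h to 33.6 ± 4.59 CPM at 24 h, a log2 fold change of -0.80 ± 0.18 (SE; edgeR, adjusted p = 0.0375). That call held without MS-145, where it was -1.03, and was lost without any one of the other 9 libraries, with values from -0.84 to -0.72.

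In cardiomyocytes, whose libraries the rule did not use, a minority of members responded to the high dose, and more of them rose than fell. After 9 h at 1.50 mM, 16 of 161 members tested rose (9.94%, beside 6.22% of all transcripts) and 2 fell (1.24%, beside 6.41%). After 24 h, 18 of 154 rose (11.7%, beside 6.01%) and 5 fell (3.25%, beside 6.39%). With 1 library left out, 16 to 23 rose and 3 to 9 fell at 24 h, the 9 without MS-178 and the 3 without MS-167, and 14 to 21 rose and 1 to 3 fell at 9 h, the 1 without MS-162. The median log2 fold change of the members was 0.12 at 9 h and 0.14 at 24 h, against 0.01 and 0.00 over all transcripts. The difference between these shares was not tested. Of the members that rose, 6 did so at both times, which is 37.5% of the 16 at 9 h and 33.3% of the 18 at 24 h. Over all transcripts 449 rose at both times, 40.4% of those at 9 h and 43.2% of those at 24 h. Whether the response came late was tested as the change of the high-dose effect between the times. It was larger at 24 h in 8 of 164 members (4.88%, beside 4.34% of all transcripts) and smaller in 3 (1.83%, beside 3.40%), with a median of 0.03 against -0.02. With 1 library left out, 3 to 7 members had a smaller effect, and the count moved by over 1.5 times in 8 of 20 such fits, the highest without MS-153 or MS-179. The share of members with a later rise in cardiomyocytes was thus near the background.

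At 0.50 mM, the concentration that was the high dose of the renal cells, the number of cardiomyocyte members called depended on the libraries that stood apart. At 9 h, 1 of 157 rose (beside 1.28% of all transcripts) and 0 fell (beside 1.14%), with 12 (7.64%) lower at an unadjusted p under 0.05, beside 8.96% of all transcripts, and 0 lower in DESeq2. Without MS-158, 2 of 158 rose (1.27%, beside 2.39%) and 1 fell (0.633%, beside 2.01%). At 24 h, edgeR called 0 of 158 in either direction, as it did of all transcripts (0%), with 28 (17.7%) at an unadjusted p under 0.05, beside 11.9% of all transcripts. Of the 28, 24 were higher (15.2%, beside 7.62%). DESeq2 called 3, all higher (1.94%, beside 1.07% of all transcripts in either direction). Without vehicle library MS-168 and low-dose libraries MS-172 and MS-174, which left 4 against 3 libraries, edgeR called 10 of 157 higher (6.37%, beside 1.94% of all transcripts) and 0 lower (beside 0.940%). The renal value at this concentration is given only side by side with these, since cell type, culture and medium differ.

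The strongest cardiomyocyte response among the members was again that of ENSRNOT00000066509. Its estimated counts were not whole in 78 of the 90 libraries, so its level can depend on how reads were divided among transcripts. At 9 h the vehicle libraries held at most 2.05 CPM and the 1.50 mM libraries 69, 63.7, 69, 68.7 and 64.8 CPM. At 24 h vehicle held 1.46 to 3.09 CPM and the high dose 83.5 to 94.4 CPM. The log2 fold changes were 5.55 ± 0.26 (SE; edgeR, adjusted p = 2.37e-08) and 5.25 ± 0.16 (edgeR, adjusted p = 2.14e-09), and their difference of -0.30 ± 0.36 was not called (edgeR, adjusted p = 0.631). In cardiomyocytes this transcript was thus already high at 9 h, while in renal cells it was selected as level with vehicle at that time. At 0.50 mM it was at 9.01 ± 3.02 CPM at 9 h, the call at that dose, with a log2 fold change of 2.87 ± 0.68 (edgeR, adjusted p = 0.0387) that was lost in 7 of 10 fits without 1 library. At 24 h 4 of the 5 libraries of that dose held 21.7 to 25 CPM and library MS-174 held 2.11 CPM, inside the vehicle range. With all libraries the log2 fold change at 24 h was 3.23 ± 0.58 (edgeR, adjusted p = 0.202), without MS-174 it was 3.52 ± 0.25 (edgeR, adjusted p = 2.92e-04), and without MS-168 and MS-172 also it was 3.48 ± 0.18 (edgeR, adjusted p = 4.35e-05).

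ENSRNOT00000027260 rose late in cardiomyocytes. At 9 h vehicle held 278 ± 9.11 CPM and the high dose 296 ± 25.7 CPM, with overlapping libraries. At 24 h vehicle held 175, 177, 184, 192 and 187 CPM and the high dose 461, 452, 404, 397 and 383 CPM. The effect at 24 h was 1.19 ± 0.06 (SE; edgeR, adjusted p = 1.78e-07) and its change after 9 h was 1.15 ± 0.09 (edgeR, adjusted p = 3.64e-08). This is the order of times by which it had been selected in renal cells.

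Other members did the opposite. ENSRNOT00000003075 was higher at the high dose at 9 h, at 7.96 ± 2.59 CPM against 3.2 ± 1.23 CPM in vehicle, and lower at 24 h, at 4.69 ± 1.43 CPM against 8.93 ± 1.42 CPM. The change of its effect was -2.22 ± 0.34 (SE; edgeR, adjusted p = 1.13e-04). ENSRNOT00000005284 (3093 bases, rank 130) had the largest fall at 24 h among called members whose mean log2 CPM reached 3. Its vehicle libraries held 12.6, 11.5, 12.8, 13.4 and 12.1 CPM and the high-dose libraries 7, 8.01, 8.66, 8.85 and 8.77 CPM. The groups did not overlap and the log2 fold change was -0.61 ± 0.09 (edgeR, adjusted p = 3.13e-04), a call that was lost without MS-169 (-0.59) or MS-176 (-0.55). In renal cells at 24 h the same transcript stood at 83.7 ± 11.7 CPM at the high dose against 43.5 ± 3.46 CPM in vehicle. ENSRNOT00000027847 was at 0 in all 30 cardiomyocyte libraries.

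In hepatocytes the members moved in both directions. After 9 h at 0.125 mM, 16 of 149 members tested rose (10.7%, beside 8.48% of all transcripts) and 12 fell (8.05%, beside 9.95%), with a median of 0.10 against 0.00. At 0.025 mM and 9 h, 2 of 147 rose (1.36%, beside 1.12%) and 4 fell (2.72%, beside 1.22%), with a median of 0.04 against 0.00. With 1 library left out, 2 to 6 rose, the 6 without MS-100, and 2 to 5 fell, the 2 without any one of 5 libraries and the 5 without MS-95. The comparisons at 24 h use vehicle library MS-183. At the high dose, 5 of 149 rose (3.36%, beside 6.65%) and 7 fell (4.7%, beside 3.72%) with it, and 14 of 156 rose (8.97%, beside 15.1%) and 28 fell (17.9%, beside 11.6%) without it, while without MS-184 the number that fell was 3. At the low dose, 12 of 152 rose (7.89%, beside 11.6%) and 26 fell (17.1%, beside 7.89%) with it, and 17 of 156 rose (10.9%, beside 20.1%) and 50 fell (32.1%, beside 16.9%) without it. The number that fell at the low dose was 10 without MS-113, and it moved by more than 1.5 times in 9 of the 10 fits without 1 library. Shares over all transcripts are not given for the fits without MS-184 or MS-113. The median at the low dose was -0.33 with MS-183 and -0.32 without it, against -0.01 and 0.01 over all transcripts.

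The high-dose effect in hepatocytes went down between 9 and 24 h for more members than it went up. The change was called higher in 8 of 165 members (4.85%, beside 13.6% of all transcripts) and lower in 29 (17.6%, beside 10.6%), with a median of -0.31 against 0.00. Without MS-183 it was higher in 12 of 166 (beside 18.6%) and lower in 40 (24.1%, beside 13.9%), with a median of -0.23 against 0.05. The direction by which the members were selected in renal cells was thus the less frequent one among called members here. Vehicle hepatocytes themselves held more of the RNA of the 141 members at 24 h. Without MS-183 their summed level ran from 7029 to 7721 CPM, against 5390.2 to 5587 CPM in vehicle at 9 h. The exposed hepatocytes held 5336 to 5565 CPM at 9 h, and at 24 h 5633 to 5752 CPM at the low dose and 5714 to 6092 CPM at the high dose, all below the 4 vehicle libraries of that time other than MS-183. The labels number the vehicle libraries of 24 h MS-181 to MS-185 and all other hepatocyte libraries MS-91 to MS-120, and the part of this in the lower calls at 24 h was not tested.

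With all libraries, ENSRNOT00000003075 had the largest called rise among members in hepatocytes. At 9 h vehicle held 11.8, 12.6, 14.7, 15 and 15.7 CPM, the low dose 25.6 to 32.8 CPM and the high dose 162, 156, 154, 177 and 153 CPM. The 3 groups did not overlap. It rose by 1.08 ± 0.09 on the log2 scale at 0.025 mM (SE; edgeR, adjusted p = 3.21e-05) and 3.62 ± 0.07 at 0.125 mM (edgeR, adjusted p = 1.03e-10). At 24 h the high-dose effect was 3.43 ± 0.29 (edgeR, adjusted p = 4.46e-05), and 3.34 without MS-183 (edgeR, adjusted p = 8.27e-08). Renal cells at 0.125 mM, in contrast, held 3.11 ± 0.447 CPM at 9 h and 1.47 ± 0.254 CPM at 24 h, beside 3.7 and 1.58 CPM in vehicle.

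ENSRNOT00000071484 (9603 bases, rank 37) had the largest fall in hepatocytes at 9 h under the naming rule. Vehicle held 22.2, 15.4, 20, 16.1 and 12.1 CPM and the high dose 5.64, 5.4, 6.73, 4.61 and 4.15 CPM. The groups did not overlap, and the log2 fold change was -1.61 ± 0.18 (SE; edgeR, adjusted p = 2.04e-05). At 24 h it was 0.73 ± 0.34 and not called with MS-183 (edgeR, adjusted p = 0.213), and 0.62 ± 0.20 and called without it (edgeR, adjusted p = 0.0297). The change of the effect was 2.27 ± 0.33 (edgeR, adjusted p = 3.46e-05) with MS-183 and 2.23 without it (edgeR, adjusted p = 3.45e-06). In renal cells at 24 h its high-dose libraries held 43.6, 32.2, 60.6, 37.5 and 62.4 CPM and vehicle 20.2, 19.2, 22.4, 17.9 and 7.38 CPM. ENSRNOT00000027847 was also lower at 9 h, by -1.17 ± 0.13 (edgeR, adjusted p = 1.97e-05). Its effect at 24 h was -0.00 ± 0.20 with MS-183 and -0.09 ± 0.10 without it, neither called, and the change of the effect was 1.12 ± 0.20 (edgeR, adjusted p = 3.23e-04) and 1.09 ± 0.17 (edgeR, adjusted p = 3.21e-05).

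ENSRNOT00000066509, the strongest riser in cardiomyocytes, fell in hepatocytes at 9 h. Vehicle held 1.92 to 3.09 CPM, the low dose 1.01 to 1.49 CPM and the high dose at most 0.801 CPM. On the log2 scale the low dose gave -1.03 ± 0.18 (SE; edgeR, adjusted p = 0.00307) and the high dose -3.34 ± 0.86 (edgeR, adjusted p = 0.00695). The high-dose value ran from -4.62 without MS-105 to -2.99 without MS-102. The median of the 5 high-dose libraries was 8.45e-06 CPM, so the size of this fall rests on values near 0. At the low dose and 24 h its difference went the other way, 3.89 ± 1.42 with MS-183 (edgeR, adjusted p = 0.0771, not called) and 3.92 ± 1.27 without it (edgeR, adjusted p = 0.0198, called). Its vehicle libraries then held at most 0.398 CPM and the low-dose libraries up to 2.16 CPM, with 1 of the 5 practically at 0. ENSRNOT00000027260 and ENSRNOT00000067391 were lower at the high dose than in vehicle at 24 h, by -1.56 ± 0.30 (edgeR, adjusted p = 0.00725) and by -1.74 ± 0.46 (edgeR, adjusted p = 0.0366). Without MS-183 these were -1.76 (edgeR, adjusted p = 4.26e-07) and -2.01 (edgeR, adjusted p = 2.36e-08). The call of ENSRNOT00000067391 was lost without any one of the other 9 libraries. The former had risen in renal cells and cardiomyocytes at that time, so its direction at 24 h was not the same in the 3 cell types.

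**Figure D4:**
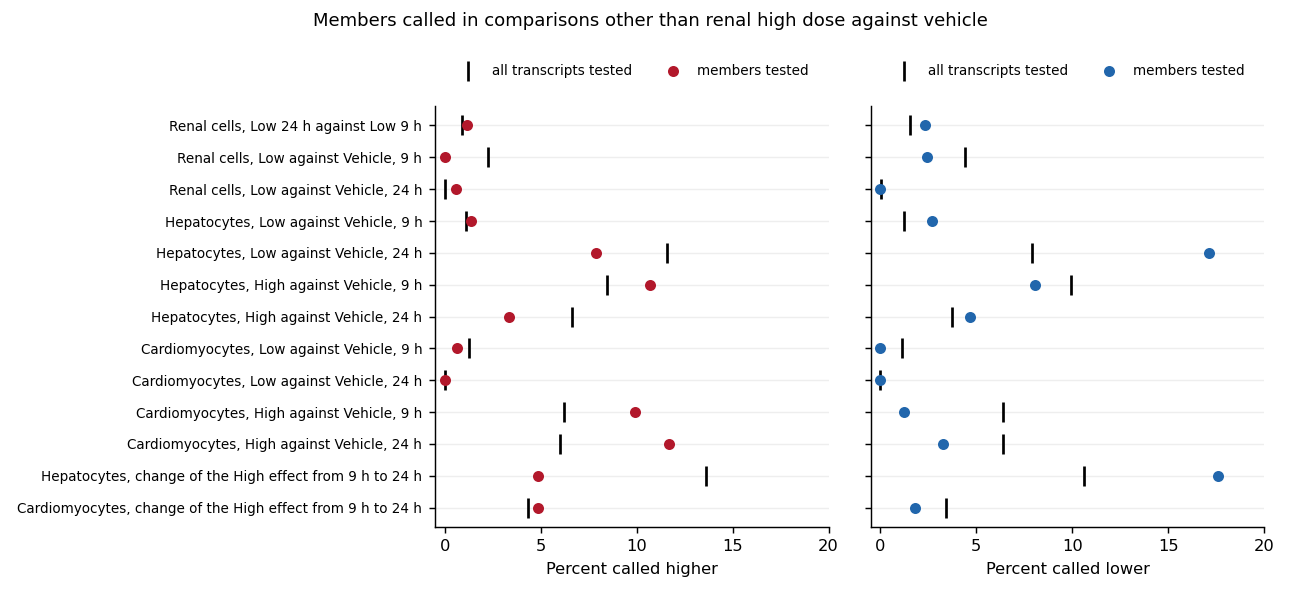
Percent of members called higher (left) and lower (right) in the 13 comparisons other than renal high dose against vehicle, each beside the percent of all transcripts tested (black bars). Among values above the bars, the distance is widest for higher calls in high-dose cardiomyocytes (9.94% and 11.7%, beside 6.22% and 6.01%) and for lower calls in hepatocytes at the low dose and 24 h (17.1%, beside 7.89%) and for the change of the high-dose effect (17.6%, beside 10.6%). Furthest below the bars lie higher calls for the change of the effect in hepatocytes (4.85%, beside 13.6%). All libraries are used, and without MS-183 the hepatocyte values became 32.1% (beside 16.9%) and 24.1% (beside 13.9%).

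Transcripts chosen by the same renal measures at other times gave other values in these comparisons, which are given side by side without a test. Of the 277 transcripts with L above 0.8 at both 9 and 24 h in renal cells, 104 of 231 tested rose and 4 fell in cardiomyocytes at the high dose and 9 h, beside 6.22% and 6.41% of all transcripts, and 93 of 211 rose and 9 fell at 24 h, beside 6.01% and 6.39%. The medians were 0.60 and 0.61. Of the 180 transcripts level with vehicle at 9 h and with L below -0.8 at 24 h, 12 of 137 tested rose and 19 fell in cardiomyocytes at the high dose and 24 h, with a median of -0.19. In hepatocytes the change of the high-dose effect was higher in 23 and lower in 70 of 239 of the former, and higher in 29 and lower in 8 of 103 of the latter, beside 13.6% and 10.6% of all transcripts.

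**Figure D5:**
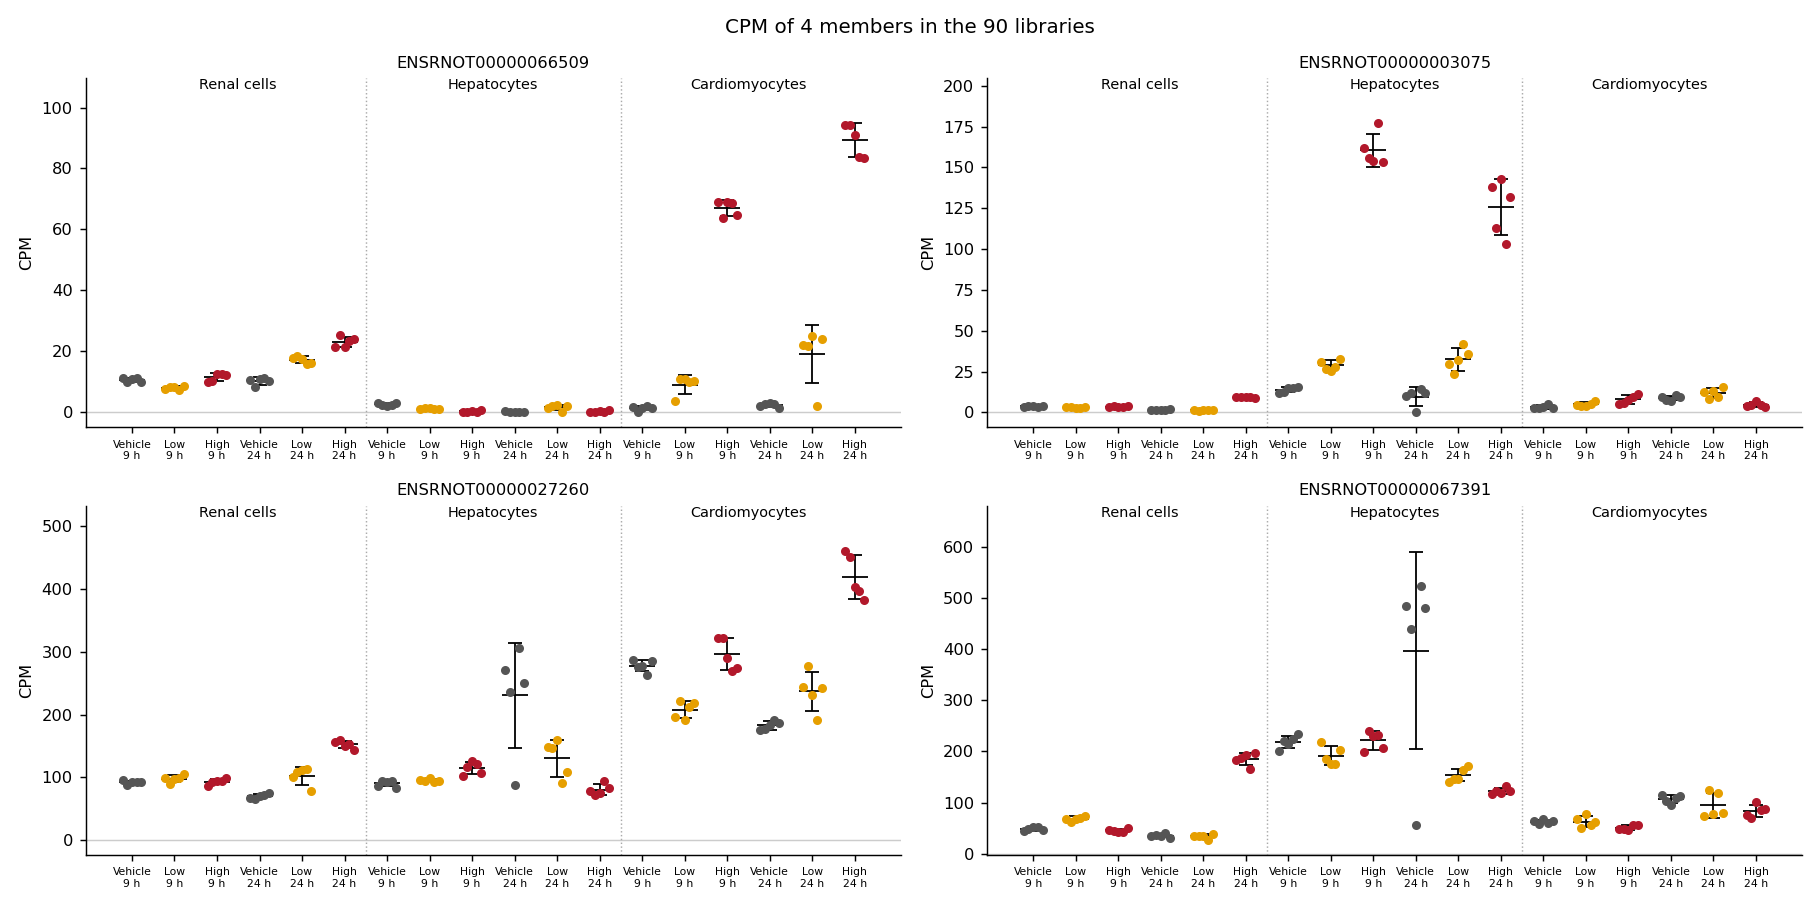
CPM of 4 members in the 90 libraries, by cell type, time and dose. Points are libraries, and bars are the mean and SD of 5. ENSRNOT00000066509 is highest in cardiomyocytes at the high dose (83.5 to 94.4 CPM at 24 h), ENSRNOT00000003075 in hepatocytes at the high dose (153 to 177 CPM at 9 h), and the low point among hepatocyte vehicle libraries at 24 h is MS-183.

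The members were not specific to renal cells. On the TPM scale, which divides by transcript length and so allows levels of different transcripts to be compared, 145 of the 200 had a mean of at least 1 TPM in renal vehicle at 24 h and 183 at the high dose, and the median level was 2.75 and 7.27 TPM. In vehicle at 9 h, 143 reached 1 TPM in renal cells, 127 in hepatocytes and 126 in cardiomyocytes, with medians of 2.92, 2.29 and 2.48 TPM. In hepatocyte vehicle at 24 h it was 138 with MS-183 and 130 without it. With MS-183 left out, the condition with the highest mean CPM was renal high dose at 24 h for 74 members. It was a hepatocyte condition for 79 members, among them 36 with their highest mean in vehicle at 24 h, and a cardiomyocyte condition for 29. Among the 141 members with separate groups, renal cells and hepatocytes each held the highest condition of 61. So a large part of the members stood higher in another cell type than they ever did in renal cells.

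Most members were of low or middling level. In renal vehicle at 24 h, 154 had a mean of at least 1 CPM, 69 of at least 10 CPM and 4 of at least 100 CPM, with a median of 5.17 CPM against 14 CPM over all transcripts tested. The 59 members with overlapping groups were lower, with a median of 1.2 CPM, than the 141 others, with 7.14 CPM. The median SD at the high dose and 24 h was 91.7% of the mean in the former and 11.5% in the latter. Member lengths ran from 228 to 14160 bases, and their median of 2469.5 bases compares with 2176.5 over all transcripts tested. Estimated counts stay whole where no read had to be divided among transcripts. They were whole (within 0.001) in all 90 libraries for 44 of the 200 members (22%), and all 44 had separate groups, against 36.8% of all transcripts tested. For the other members part of the reads was shared with further transcripts, so a level there can move with the way reads were divided, and the share of such reads in a change was not tested.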

How the data were processed

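RNA-seq tables of 90 libraries were used, 5 for each of 18 conditions, grouped by the labels. Per the labels and the study's methods, the authors pseudo-aligned the reads to the Rnor_6.0 transcriptome with kallisto 0.42.4 and deposited estimated counts and TPM for each target, where a read that fits several transcripts is divided among them. The resampled estimates that go with such tables were not used. Estimated counts are normalized for neither depth nor length, and TPM is normalized for both. Of the targets, 40071 transcripts were used, and 25095 genomic intervals were left out.

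CPM was the estimated count per 1000000 counts on transcripts in the library. For tests the estimated counts were rounded and compared with edgeR 4.0.16 in R 4.3.3 (filterByExpr, TMM, glmQLFit, glmQLFTest) on the whole table, with Benjamini-Hochberg adjustment over all transcripts tested. A call, written as rose or fell, higher or lower, followed the study in asking for an adjusted p no larger than 0.05 with a change of 0.41 or more on the natural log scale, in either direction. The SE was the log2 fold change divided by the root of the F statistic. The change of an effect was the interaction of dose and time over 20 libraries. In all, 13 comparisons were tested. Those of the renal low dose against vehicle share vehicle libraries with the rule and serve as description. The alternatives were DESeq2 1.42.0, no filter beyond 1 count, a joint fit of the 6 groups of each cell type, and each library left out in turn. Leaving out libraries that stood apart was added after the data were seen. The fits were tested on simulated data.

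The members and lists were chosen with earlier results of these data known. By rule, 4 identifiers were named: the largest L at 24 h, the largest called rise between the low-dose times, and the largest called fall in high-dose cardiomyocytes at 24 h and in high-dose hepatocytes at 9 h, the last 3 among members whose mean log2 CPM reached 3. A further 6 (ENSRNOT00000067391, ENSRNOT00000027847, ENSRNOT00000003075, ENSRNOT00000058700, ENSRNOT00000027260 and ENSRNOT00000084322) were singled out after their values were seen. The planned gene and marker lists could not be used, since 0 identifiers matched a gene table. At these depths 1 CPM stood for 10 or more counts in every library other than MS-183, where it stood for less than 1.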

Additional observations from a re-analysis of the deposited data

Results flagged for a closer look

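In a group of 5 libraries, a value was singled out when its gap to the nearest other library took up more of the group's range than Dixon's 95% limit allows, which chance alone does in about 1 in 20 groups. Both sums and the 9 named transcripts were checked in all 18 conditions. Of 198 groups of values checked, 29 held such a value. For the summed level of the 141 members with separate groups, the low libraries were low-dose renal MS-145 at 24 h (2305 CPM), hepatocyte vehicle MS-183 at 24 h (3280.4 CPM), and low-dose cardiomyocyte MS-158 at 9 h (2569 CPM) and MS-172 at 24 h (2438 CPM). Vehicle cardiomyocyte library MS-155 at 9 h was high for this sum, by a small margin (3793 CPM, against 3696 to 3722 CPM). For the summed level of the other 59, the high libraries were hepatocyte MS-183 (7419 CPM), MS-105 (591 CPM) and MS-120 (1399 CPM), and cardiomyocyte MS-168 (411 CPM) and MS-158 (1133 CPM). For ENSRNOT00000061041 the libraries were hepatocyte MS-120 (65.4 CPM), renal MS-126 (0.339 CPM), MS-144 (62.7 CPM) and MS-147 (55.6 CPM), and cardiomyocyte MS-174 (57.6 CPM). For ENSRNOT00000058700 they were hepatocyte MS-97 (17.1 CPM) and MS-120 (50.9 CPM), renal MS-147 (183 CPM), and cardiomyocyte MS-168 (54.8 CPM) and MS-158 (198 CPM). Libraries MS-120 and MS-147 thus stood out for both transcripts.

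For ENSRNOT00000066509 the low values were those of low-dose cardiomyocyte libraries MS-156 at 9 h (3.65 CPM) and MS-174 at 24 h (2.11 CPM). High-dose cardiomyocyte library MS-164 at 9 h was low for ENSRNOT00000005284 (6.51 CPM) and high for ENSRNOT00000071484 (0.12 CPM, where the other 4 were at 0). In hepatocyte vehicle at 24 h, MS-183 stood out for ENSRNOT00000005284 (90 CPM), ENSRNOT00000067391 (56.2 CPM) and ENSRNOT00000027847 (4.01 CPM), and MS-181 was high for ENSRNOT00000066509 (0.398 CPM). Vehicle cardiomyocyte library MS-154 at 9 h was high for ENSRNOT00000003075 (5.35 CPM).

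The high-dose effect differed between 9 and 24 h, in the edgeR interaction test, for 37 of 165 members tested in hepatocytes (22.4%, beside 24.2% of all transcripts) and for 11 of 164 in cardiomyocytes (6.71%, beside 7.73%). Both shares were near those over all transcripts. In DESeq2 they were 30.2% (beside 28.1%) and 10.4% (beside 8.88%), so the side on which they lay depended on the tool. Without MS-183 the hepatocyte count in edgeR was 52 (31.3%, beside 32.5%).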

How the results depend on the processing

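Of the 200 members, 92 were still taken with deposited TPM in place of CPM and 119 with the median over 5 libraries in place of the mean. A pseudocount of 0.5 kept 157, TMM-scaled CPM 156, and leaving out 1 library kept 161 to 183. No paired analysis was possible because the groups share no replicate numbers.

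DESeq2 called 54 members for the hepatocyte low dose at 24 h (36.5%, beside 31.2% of all transcripts), against 38 in edgeR. It called 48 for the hepatocyte change of the high-dose effect (30.2%, beside 28.1%), against 37. For the cardiomyocyte high dose at 24 h it called 30 (19.6%, beside 13.5%), against 18 higher and 5 lower. The hepatocyte low dose at 9 h gave 7 (4.76%, beside 2.41%), against 6. DESeq2 also gave other counts of members called for the renal low dose, 24 h against 9 h (11, against 6 in edgeR) and against vehicle at 24 h (2, against 1), for the hepatocyte high dose at 24 h (26, against 12), for the cardiomyocyte low dose at 9 h (3, against 1) and 24 h (3, against 0), and for the cardiomyocyte change of the high-dose effect (17, against 11). In joint fits of the 6 groups of each cell type these were 23 and 2 in renal cells, 2 and 62 for the hepatocyte low dose at 9 and 24 h (against 6 and 38), 44 for the hepatocyte high dose at 24 h, 5 and 2 for the cardiomyocyte low dose, and 11 for the cardiomyocyte high dose at 9 h (against 18). Without the filter they were 9 for the hepatocyte low dose and 3 for the high dose at 24 h, 21 for the hepatocyte change (against 37) and 0 for the cardiomyocyte low dose at 9 h. Without MS-144 and MS-145 the renal low dose gave 14 between the times, and without MS-137 and MS-140 also, 3 against vehicle. Without MS-168, MS-172 and MS-174 the cardiomyocyte low dose gave 10 at 24 h.

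The share over all transcripts moved with these counts. For the hepatocyte low dose at 24 h it was 35% in the joint fit (36.9% of members) and 4.14% without the filter (4.57% of members), and for the high dose 27% (26.2%) and 1.84% (1.5%), with 22% in DESeq2 (18.3%). For the renal low dose between the times it was 6.2% in the joint fit (11.8% of members), 3.83% in DESeq2 (6.59%) and 4.13% without MS-144 and MS-145 (8.14%). For the cardiomyocyte high dose at 9 h it was 8.5% in the joint fit (6.21%), and for the change of the effect 8.88% in DESeq2 (10.4%) and, in hepatocytes without the filter, 9.44% (10.5%). In the low-dose fits named here that called 5 members or fewer, it was at most 4.15%.

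Leaving out 1 library gave 2 to 11 for the renal low dose between the times, where the lowest was without MS-129 and the highest without MS-145. It gave 3 to 7 and 0 to 2 for the renal low dose against vehicle at 9 and 24 h, 4 to 10 and 19 to 67 for the hepatocyte low dose, 8 to 42 for the hepatocyte high dose at 24 h, and 0 to 3 and 0 to 1 for the cardiomyocyte low dose. The lowest hepatocyte low-dose count at 24 h was without MS-113 and the highest at 9 h without MS-95. Without MS-183, the 67 at the hepatocyte low dose were 42.9% of members (beside 37% of all transcripts). The 42 at the high dose were 26.9% (beside 26.7%). Most other fits without 1 library have no such share given, so their counts are not set against a background. The highest hepatocyte counts at 24 h were without MS-183, the highest renal low-dose counts against vehicle without MS-126 at 9 h and MS-145 at 24 h, and the highest cardiomyocyte counts without MS-158 at 9 h and MS-174 at 24 h. The cause was not tested. Over the 33 calls of named members and all alternatives, 451 of 502 values kept their call, 51 lost it and 0 changed sign.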
